A study of Homo sapiens with 10 samples.

Results

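The genes described here encode the Wnt and Notch signalling pathways, and their RNA was compared between parts of the nucleus of HEK293, a human embryonic kidney cell line that grows attached. The soluble part of the nucleus (soluble nuclear extract, SNE) was taken from 3 samples and the part that stays with chromatin (chromatin pellet extract, CPE) from 3, and stranded total RNA was sequenced. The labels number the samples of each group without saying whether they came from separate cultures, so the p-values of the authors' test may measure technical spread only. No treatment was labelled for these samples. Chromatin pellets with DRB, which blocks transcription elongation (2 samples), and their mock treatment (2 samples) were also labelled, but the table analysed compares only SNE with CPE.

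The genes were chosen from a list of 54 pathway genes by a row of their own in the authors' deposited table, with 1 gene symbol and a completed test. This gave 43 genes among 16699 tested loci with 1 symbol and 192931 tested loci in all. A further 4 listed genes had a row without a completed test, and 7 stood only in rows that name several genes. For each gene and group the table gives 1 level in FPKM (fragments scaled by transcript length and by library), which summarises the numbered samples of that group. No spread between replicates could therefore be computed, and the read depth of each library was unknown. A gene was called where the q value of the authors' Cuffdiff test, adjusted over all tested loci, was at most 0.05. FPKM is relative to each library, so the amount of a transcript per nucleus in either extract cannot be read from it.

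In the canonical Wnt pathway, a lipid-modified Wnt ligand binds a Frizzled receptor and an LRP co-receptor. Dishevelled is then recruited and the destruction complex of Axin, APC, casein kinase and GSK3 stops marking beta-catenin for degradation, so that beta-catenin reaches TCF and LEF factors on DNA. In the Notch pathway, a Delta or Jagged ligand on a neighbouring cell triggers cleavage of the receptor by an ADAM protease and then by gamma-secretase. The freed intracellular domain joins RBPJ and a Mastermind protein on DNA and turns on repressors of the HES and HEY families. HEK293 cells are a common host for reporter assays of both pathways.

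Markers of the line were uneven per the authors' deposited table. VIM, KRT8 and LIN28B were listed at FPKM values of 173, 86.9 and 32.3 in SNE per the authors' deposited table. PAX2 was listed at 0.303 in SNE, and the neurofilament genes NEFL and NEFM at 0.120 and 0.0755, per the authors' deposited table. The blood genes CD3E and HBB were listed at 0 in both extracts, and the chromatin-retained RNA NEAT1 at 4.11 in SNE and 44.6 in CPE, per the authors' deposited table. Other genes typical of other cell types were not all at 0. The fibroblast gene COL1A1 was listed at 1.45 in SNE and 0.958 in CPE, above PAX2 in both extracts (q = 0.407 by Cuffdiff). The liver gene ALB was listed at 0 in SNE and 0.373 in CPE, higher in CPE at q = 0.000706 by Cuffdiff. PTPRC, another blood gene, was listed at 0 and 0.00306 without a completed test.

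RNA of both pathways lay toward the soluble extract. All 43 genes had a lower FPKM in CPE than in SNE, 22 were called higher in SNE and 0 higher in CPE, while 21 had no call. At an unadjusted p under 0.05 from the authors' Cuffdiff test, 29 genes were on the SNE side and 0 on the CPE side. The share of all loci at this unadjusted threshold was not counted, so these counts do not set the genes apart. The called share was 51.2%, against 39.1% of the 16699 loci with 1 symbol called higher in SNE and 1.71% called higher in CPE. Among the 40 pathway genes with FPKM of at least 1 in either extract it was 55.0%. The matching share of 9056 protein-coding loci was 56.8% higher in SNE and 0.519% higher in CPE, and 92.9% of them had a ratio below 0. The share called was thus near that of protein-coding genes at large.

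Over the 43 genes the log2 ratio (CPE over SNE) had a median of -1.29, with an interquartile range of -1.98 to -1.0045. It was -1.25 over all loci with 1 symbol and -1.44 over protein-coding loci with FPKM of at least 1. The zero of the ratio is set by the authors' scaling. Relative to the median of loci with 1 symbol, a shift of -1.25, 19 of the 43 genes lay toward chromatin and 24 toward the soluble extract, and the 22 called genes divided into 5 and 17. These are counts of sign without a test. The 27 Wnt genes had 13 calls and a median of -1.45, and the 16 Notch genes had 9 calls and a median of -1.11. The difference between the pathways was not tested.

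**Figure D1:**
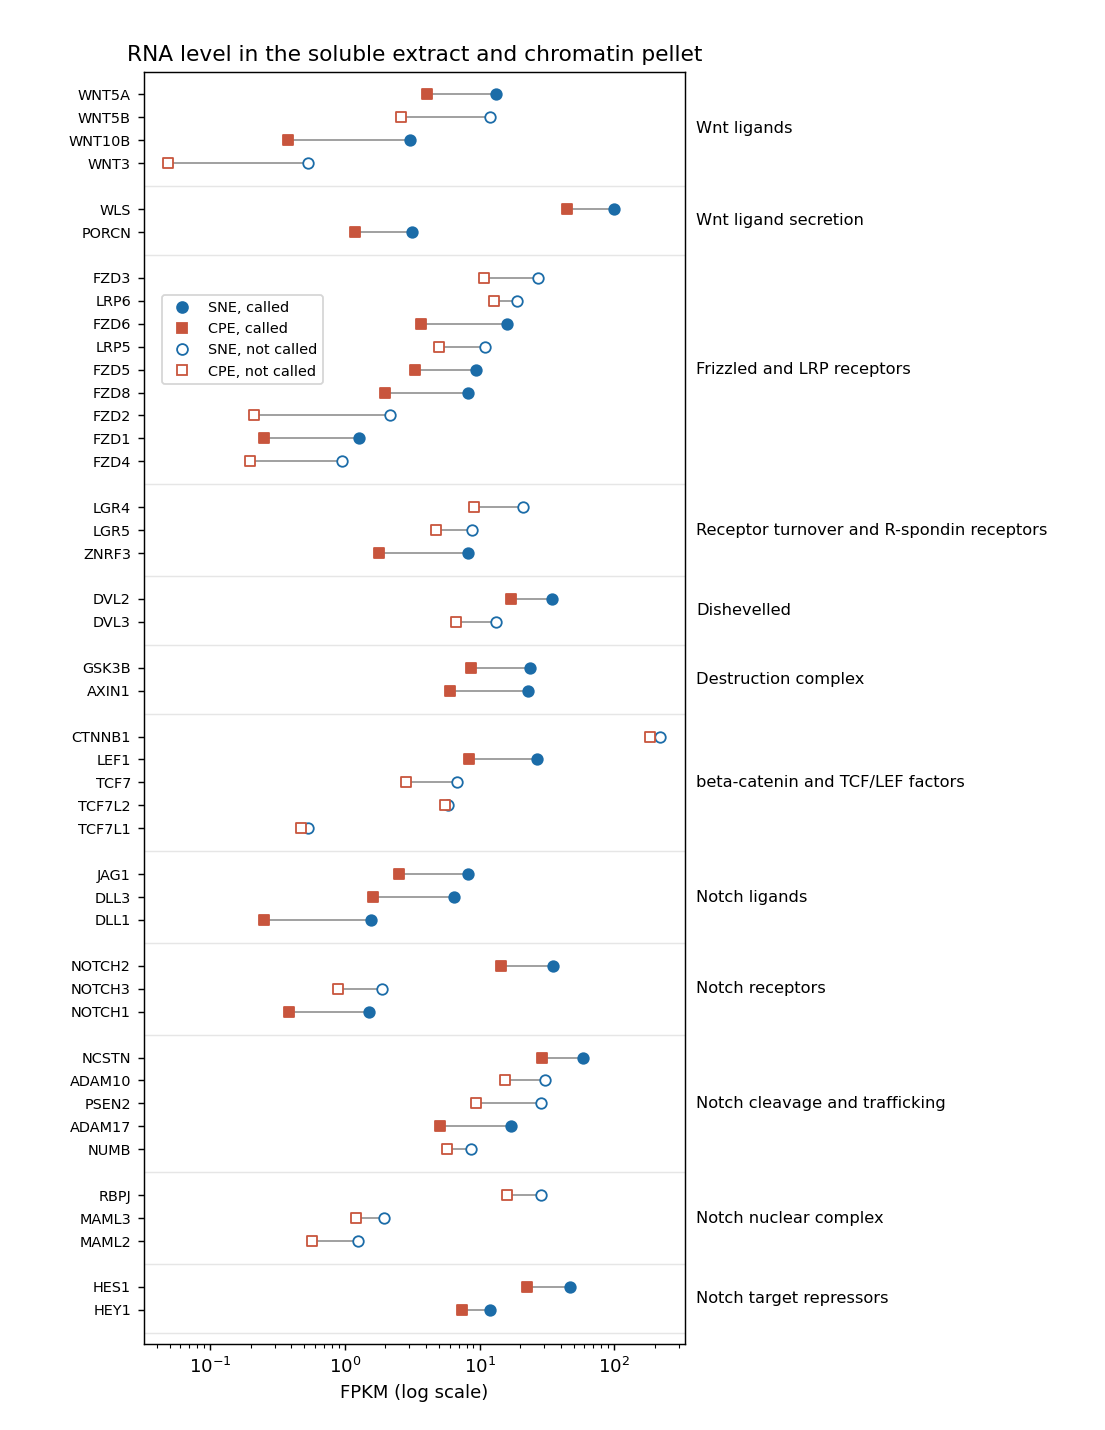
FPKM on a log axis for each of the 43 genes, grouped by role, in the soluble nuclear extract (SNE, circles) and the chromatin pellet extract (CPE, squares), with 1 value per group from the authors' deposited table and no replicate error. Filled symbols mark the 22 genes called at q of at most 0.05, and every square lies left of its circle.

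Wnt ligands had the lowest median ratio of the 12 roles, -2.60 over 4 genes, of which 2 were called in SNE. The genes fell in length classes under 10, of 10 to 50 and of 50 to 150 kb. Of protein-coding loci in those classes, 74.9%, 67.1% and 47.6% were called in SNE, so 2 of 4 does not set this role apart. Further WNT genes with tested rows of their own ran from -2.56 for WNT11 to -0.47 for WNT2B per the authors' deposited table. The wider set of further Wnt ligands and secreted regulators had a median of -1.38. WNT5A, a ligand best known for beta-catenin-independent signalling, was at FPKM 13.1 in SNE and 4.04 in CPE per the authors' deposited table (3.25-fold, q = 0.000706 by Cuffdiff, the smallest q in the table). WNT10B, a canonical ligand, was at FPKM 3.02 and 0.380 per the authors' deposited table (7.93-fold, q = 0.00251 by Cuffdiff). WNT5B, a close relative of WNT5A, had values of 12.03 and 2.60 per the authors' deposited table and stood just outside the call threshold (q = 0.0572). The lowest ratio of all 43 genes was that of WNT3, at 0.535 in SNE and 0.0487 in CPE per the authors' deposited table, a log2 ratio of -3.46 without a call (q = 0.0704). A large ratio thus did not by itself give a call. WNT6 had a row at 0.0990 and 0.0230 FPKM per the authors' deposited table, without a completed test.

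The genes that make ligands ready for secretion were both called in SNE. Of protein-coding loci in the length classes of PORCN and WLS, 67.1% and 47.6% were called in SNE, so 2 of 2 does not set this role apart. WLS, the carrier that takes lipid-modified Wnt proteins to the cell surface, was second in SNE level among the 43 genes, with 99.8 FPKM in SNE and 44.6 FPKM in CPE per the authors' deposited table (2.24-fold, q = 0.0234). Its log2 ratio of -1.16 per the authors' deposited table turned to 0.090 after centring on loci with 1 symbol. PORCN, the acyltransferase that adds the lipid, was at 3.14 and 1.18 per the authors' deposited table (2.67-fold, q = 0.000706).

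Frizzled receptors spanned a wide range of levels. Of the 7 with a tested row, 4 were called in SNE and 3 were not, with a median log2 ratio of -2.12. FZD6, which can restrain canonical signalling, was at 15.9 in SNE and 3.64 in CPE per the authors' deposited table (4.36-fold, q = 0.000706). FZD5 was at 9.42 and 3.29, and FZD8 at 8.13 and 1.98, per the authors' deposited table (2.86-fold and 4.12-fold, q = 0.000706 for each). FZD1 was at 1.27 and 0.251 per the authors' deposited table (5.06-fold, q = 0.000706). These receptors bind Wnt through a cysteine-rich extracellular domain.

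The other Frizzled genes were not called. FZD3, the most abundant, known for axon guidance, was at 27.0 and 10.7 per the authors' deposited table (q = 0.126). Its deposited log2 ratio of -1.28 differs from the -1.33 that these FPKM values give, the only such difference over 0.01 among the 43 genes. FZD2 was at 2.18 and 0.210 per the authors' deposited table, a log2 ratio of -3.37, and yet had q = 0.493. FZD4, the receptor for Norrin in the retina, was at 0.943 and 0.196 per the authors' deposited table (q = 0.306). FZD7 was listed at 7.13 and 2.14 per the authors' deposited table as low data, without a test. FZD1, FZD2 and FZD8 have a longest coding transcript of 1 exon in GENCODE 29, and their ratios lay between -3.37 and -2.04. Over 168 protein-coding loci of that kind with FPKM of at least 1 in either extract the median was -2.04.

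The LRP co-receptors, which pass the Wnt signal to Axin, were not called. LRP6 was at 18.9 in SNE and 12.7 in CPE per the authors' deposited table, a log2 ratio of -0.57 (q = 0.465). LRP5 was at 10.97 and 5.00 per the authors' deposited table, a log2 ratio of -1.13 (q = 0.493).

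Regulators of receptor turnover divided by call. ZNRF3, a ubiquitin ligase that removes Frizzled from the cell surface, was at 8.19 in SNE and 1.80 in CPE per the authors' deposited table (4.56-fold, q = 0.000706). LGR4, a receptor for R-spondins, which block ZNRF3, was at 21.1 and 9.13 per the authors' deposited table (q = 0.181). LGR5, its relative and a stem cell marker in the intestine, was at 8.76 and 4.75 per the authors' deposited table (q = 0.310).

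Inside the cell, the destruction complex genes with rows of their own were called in SNE. They are only 2 genes, and 47.6% and 21.8% of protein-coding loci in the length classes of AXIN1 and GSK3B were called in SNE. AXIN1, the scaffold of the complex, was at 22.9 in SNE and 6.01 in CPE per the authors' deposited table (3.81-fold, q = 0.000706). GSK3B, the kinase that marks beta-catenin, was at 23.5 and 8.59 per the authors' deposited table (2.73-fold, q = 0.00567). DVL2, a Dishevelled protein, was at 34.4 and 17.0 per the authors' deposited table and stood just inside the threshold (q = 0.0493). Its log2 ratio of -1.02 per the authors' deposited table became 0.24 after centring on loci with 1 symbol. DVL3 was at 13.2 and 6.70 per the authors' deposited table, without a call (q = 0.508). Its region names 22 other loci, and reads of any that overlap DVL3 cannot be told apart. Of the 43 regions, 29 name at least 1 other locus. DVL1 lies in a region above Cuffdiff's data limit, where values listed at 0 are failed estimates.

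The genes nearest to equal FPKM in both extracts were among those of beta-catenin and its DNA-binding partners. CTNNB1, which encodes beta-catenin and was the most abundant gene, was at FPKM 220.4 in SNE and 183.9 in CPE per the authors' deposited table, a log2 ratio of -0.26 (q = 0.292). TCF7L2, the main TCF factor of intestine and a diabetes risk gene, was at 5.86 and 5.50 per the authors' deposited table, a log2 ratio of -0.09 (q = 0.918). TCF7L1, which acts mostly as a repressor, was at 0.535 and 0.471 per the authors' deposited table, a log2 ratio of -0.18 (q = 0.758). The SNE and CPE values of these 3 genes lay within 1.20-fold of each other. LEF1 differed from them in being called, at 26.6 in SNE and 8.39 in CPE per the authors' deposited table (3.17-fold, q = 0.0306). TCF7 was at 6.85 and 2.85 per the authors' deposited table (q = 0.492). The difference in ratio between these factors was not tested, and a q above the threshold does not show equal levels. CTNNB1 lies in an hg19 region of chromosome 3 from 41236328 to 42003922 that names 8 other loci and holds 26 unnamed ones. TCF7L2 lies in a region of chromosome 10 from 114710009 to 114928753 that names 2 others.

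**Figure D2:**
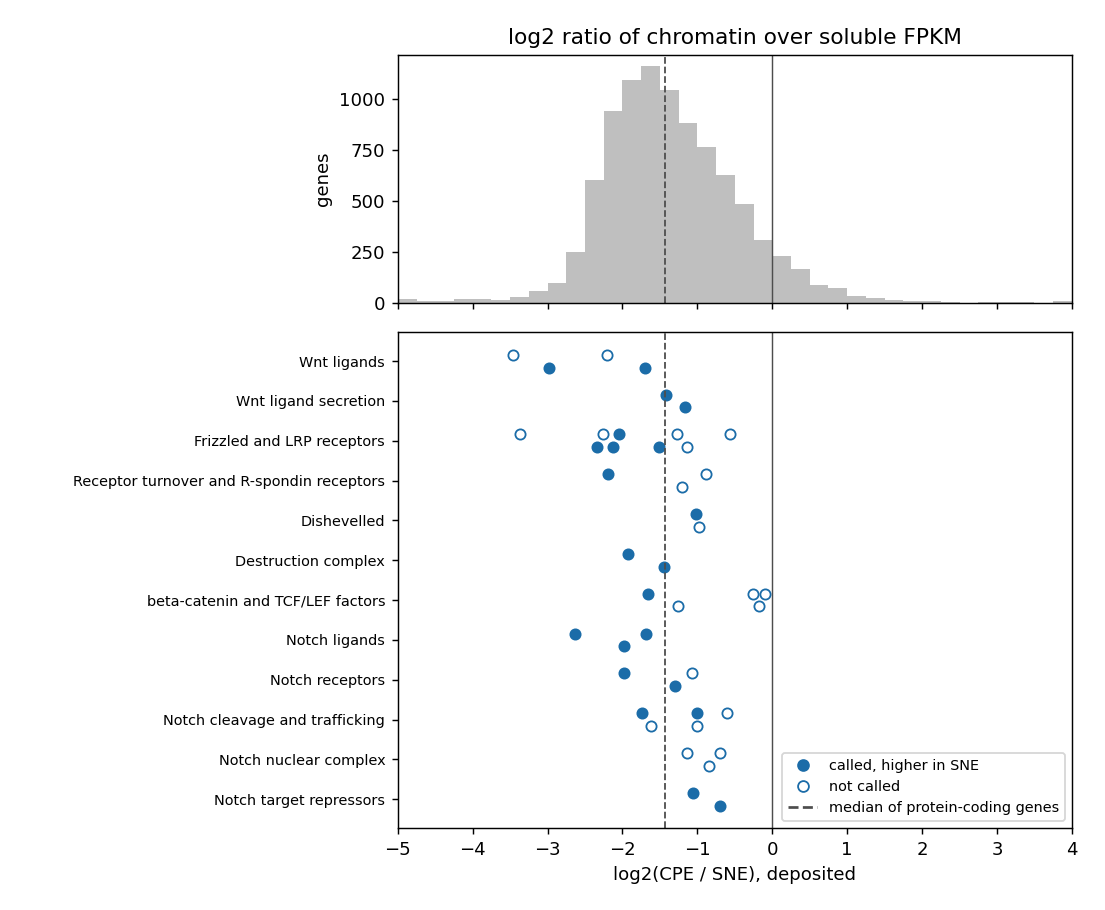
Deposited log2 ratio of CPE over SNE: above, the distribution over protein-coding loci that reach FPKM 1 in either extract (values beyond the axis are counted in the end bins), and below, each of the 43 genes by role. Points within a role are offset vertically to be visible. Wnt ligands reach the lowest ratios, and CTNNB1, TCF7L1 and TCF7L2 are the 3 points nearest 0.

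All 3 tested Notch ligands were called in SNE, with a median log2 ratio of -1.99. DLL3 is under 10 kb long, and JAG1 is of 10 to 50 kb. DLL1 was classed with JAG1 at 24.36 kb, its length in the annotation used for gene length. Its whole table region spans only 8.326 kb, however, so the measured DLL1 locus is under 10 kb. Of protein-coding loci of those lengths, 74.9% and 67.1% were called in SNE, so 3 of 3 does not set this role apart. JAG1, a Jagged ligand mutated in Alagille syndrome, was at 8.15 in SNE and 2.54 in CPE per the authors' deposited table (3.21-fold, q = 0.0159). DLL3, which inhibits Notch within the same cell, was at 6.44 and 1.63 per the authors' deposited table (3.96-fold, q = 0.000706). DLL1, an activating Delta ligand, was at 1.56 and 0.250 per the authors' deposited table (6.23-fold, q = 0.00251).

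Among the receptors NOTCH2 was by far the most abundant, at 35.3 in SNE and 14.4 in CPE per the authors' deposited table (2.45-fold, q = 0.00194). NOTCH1 was at 1.505 and 0.381 per the authors' deposited table (3.95-fold, q = 0.000706). NOTCH3 was at 1.88 and 0.890 per the authors' deposited table, without a call (q = 0.0876). NOTCH2 has near-identical duplicated copies in the genome, so its read assignment is uncertain.

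The proteases that release the Notch intracellular domain gave mixed calls. ADAM17 was at 17.0 in SNE and 5.09 in CPE per the authors' deposited table (3.34-fold, q = 0.000706), while ADAM10, the main sheddase of ligand-bound Notch, was at 30.8 and 15.4 (q = 0.126). NCSTN, which encodes the gamma-secretase subunit nicastrin, was at 58.4 and 29.1 per the authors' deposited table (2.01-fold, q = 0.0429). Its log2 ratio of -1.01 per the authors' deposited table became 0.25 after centring on loci with 1 symbol. PSEN2, a catalytic subunit of the same enzyme, was at 28.7 and 9.35 per the authors' deposited table without a call (q = 0.197). NUMB, an endocytic inhibitor of Notch, was at 8.66 and 5.69 per the authors' deposited table, a log2 ratio of -0.61 (q = 0.438).

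The Notch nuclear complex had 0 of 3 genes called. All 3 genes are longer than 150 kb, a length at which 21.8% of protein-coding loci were called in SNE, so a count of 0 among 3 does not set this role apart. At an unadjusted p under 0.05 from the authors' Cuffdiff test its count was also 0, with p values of 0.135, 0.0531 and 0.304 for RBPJ, MAML2 and MAML3. RBPJ, the DNA-binding factor of the pathway, was at 28.6 in SNE and 15.9 in CPE per the authors' deposited table, a log2 ratio of -0.85 (q = 0.447). MAML2 was at 1.25 and 0.567, and MAML3 at 1.95 and 1.20, per the authors' deposited table (q = 0.258 and q = 0.496). Both encode Mastermind coactivators.

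The Notch target repressors HES1 and HEY1 were both called in SNE. Both are under 10 kb long, a length at which 74.9% of protein-coding loci were called in SNE. HES1 was at 46.9 in SNE and 22.4 in CPE per the authors' deposited table (2.09-fold, q = 0.000706). HEY1 was at 11.9 and 7.36 per the authors' deposited table (1.62-fold, q = 0.0270), the called gene with the least difference. The log2 ratios of HES1 and HEY1, -1.06 and -0.70 per the authors' deposited table, became 0.19 and 0.56 after centring on loci with 1 symbol. HES4 lies in the region above Cuffdiff's data limit that also holds DVL1.

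The promoters of HES1 and RBPJ are shown because both hold GTGGGAA, a core binding motif of RBPJ, the factor through which Notch acts on DNA. Windows run from 250 bases before to 50 after an annotated start and come from RefSeq on GRCh38.p14, with matches to GTGGGAA or its reverse complement in capitals. HES1 has its window at chr3:194135898-194136197 on the plus strand, with 1 match starting at position -85 from the annotated start. RBPJ has 5 annotated windows, and the one at chr4:26319496-26319795 on the plus strand has 2 matches, starting at position -115 on the reverse strand and -73 on the forward strand.
HES1: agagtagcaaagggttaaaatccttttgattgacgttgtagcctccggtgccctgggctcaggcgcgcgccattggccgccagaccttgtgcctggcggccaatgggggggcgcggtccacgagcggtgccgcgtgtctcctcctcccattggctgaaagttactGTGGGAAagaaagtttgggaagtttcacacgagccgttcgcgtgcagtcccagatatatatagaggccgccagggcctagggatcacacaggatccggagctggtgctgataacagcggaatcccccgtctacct
RBPJ: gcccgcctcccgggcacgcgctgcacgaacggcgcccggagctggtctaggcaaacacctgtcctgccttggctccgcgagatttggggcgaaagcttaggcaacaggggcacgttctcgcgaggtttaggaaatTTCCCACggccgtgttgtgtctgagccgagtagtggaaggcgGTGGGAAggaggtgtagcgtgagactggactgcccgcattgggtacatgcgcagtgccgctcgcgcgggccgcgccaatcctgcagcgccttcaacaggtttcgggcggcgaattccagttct
Of the 43 genes, 33 matched a RefSeq entry, with 44 windows. Of these windows 2 (4.55%) held GTGGGAA on either strand, against 6.25% of all 35116 windows. CTTTGAT, a TCF motif, was in 1 of the 44 windows (2.27%), another window of RBPJ, against 2.62% of all. A match describes letters in the window and is not a measured binding site.

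Longer genes lay closer to an equal level in both extracts, as among protein-coding genes at large. Over the 43 genes the deposited log2 ratio correlated with log10 gene length at Pearson r = 0.42 and Spearman rho = 0.44. Over 9050 protein-coding loci that reach FPKM 1 in either extract, these were 0.40 and 0.41. The points are genes that share the same libraries, not independent replicates. Against the SNE level, the log2 ratio of the 43 genes had Pearson r = 0.40 and Spearman rho = 0.33, while over the protein-coding loci both were -0.25, also given as a description. The SNE level is the denominator of the ratio, so these values are linked by construction, and the difference between the sets was not tested. The 10 genes under 10 kb had a median of -2.01, with 8 called in SNE. The 11 genes of 150 kb or more had a median of -0.85, with 3 called. For protein-coding loci of those lengths the medians were -1.95 and -0.79, and 74.9% and 21.8% were called in SNE, so the counts of the pathway genes were near those of their length classes. In between, the medians were -1.52 for 10 genes of 10 to 50 kb and -1.47 for 12 genes of 50 to 150 kb, against -1.58 and -1.23. These lengths come from the annotation, so DLL1 counts at 24.36 kb although its table region spans 8.326 kb.

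Set against protein-coding loci of their own length class, 23 of the 43 genes lay within the interquartile range, 12 below and 8 above it. HES1 and HEY1, of 2.59 and 3.85 kb, lay above it, with 85.2% and 92.4% of their class at lower ratios. They were the only 2 of the 8 whose region names no other locus. CTNNB1, of 65.4 kb, lay above 87.4% of its class, and TCF7L2 and TCF7L1 above 78.6% and 75.1% of theirs. DVL2, DVL3 and NCSTN were the others. Below the range, WNT3 had 0.321% of its class at lower ratios, ZNRF3 2.99%, FZD2 3.06%, DLL1 3.35%, WNT10B 5.79% and WNT5B 6.67%. The DLL1 value is against loci of 10 to 50 kb, although its table region spans only 8.326 kb. Against loci under 10 kb its ratio of -2.64 also lies below the lower quartile, -2.33. Its percentage in that class was not computed and the value of 3.35% does not apply there. The others below it were FZD1, FZD6, AXIN1, GSK3B, NOTCH1 and ADAM17. These percentages describe 1 value per extract and carry no test. WNT3, FZD4 and TCF7L1 are under the FPKM minimum that the class members passed.

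**Figure D3:**
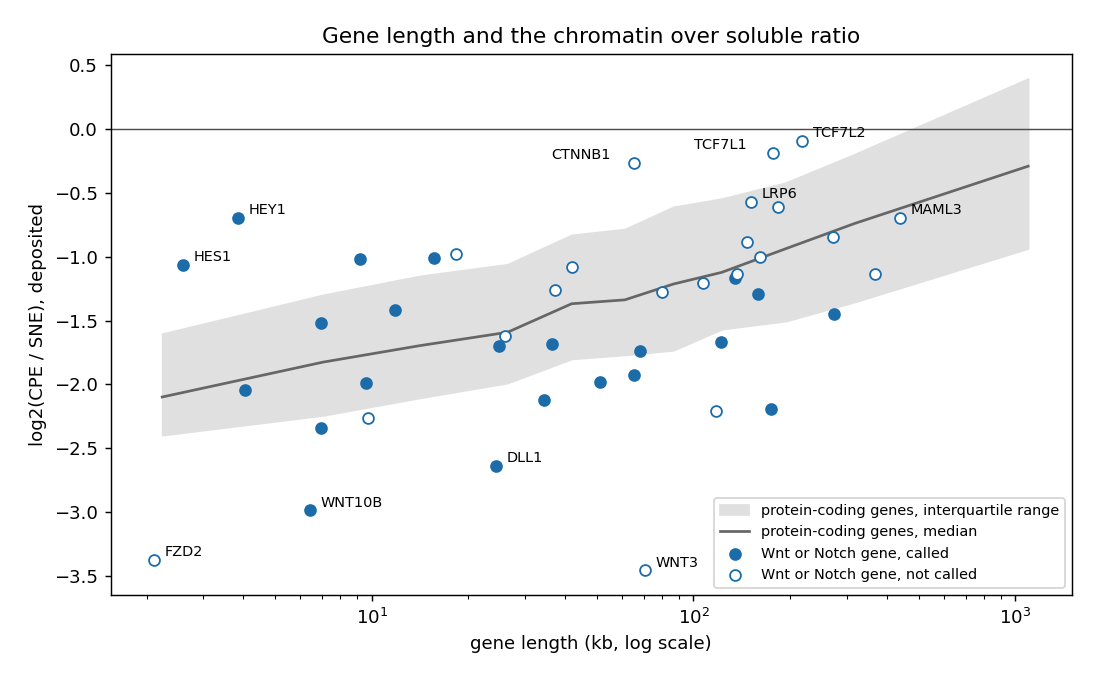
Deposited log2 ratio of CPE over SNE against gene length (log axis) for the 43 genes, filled where called, with the median and interquartile range of protein-coding loci in successive length bins. HES1, HEY1 and CTNNB1 lie above the band, and WNT3, FZD2 and WNT10B lie below it.

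The regions of these genes also held loci without a symbol, and those lay toward chromatin. A region in the table is a bundle of loci counted together, so a locus in it need not overlap the gene, and the sources used here do not say how unnamed loci were defined. The 43 regions held 1240 tested unnamed loci, of which 79 were called higher in CPE (6.37%), 3 higher in SNE (0.242%), and the remaining 1158 had no call. Over all 174660 tested unnamed loci, 9.45% were called higher in CPE and 0.63% higher in SNE, so both shares over the 43 regions together were below the background. The 14 regions with no other named locus went the other way, with 16.3% called higher in CPE. A ratio above 0 was found at 97.7% of the unnamed loci in the regions and at 97.3% of all unnamed loci. In CPE their median FPKM was 0.936, and 90 of them were listed at 0 in SNE.

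At least 1 unnamed locus was called higher in CPE in 31 of the 43 regions, and in 16 of these the named gene itself was called higher in SNE. That is near the share over all 43 genes, of which 22 (51.2%) were called higher in SNE. TCF7L2 had the most such calls, 14 of 37 unnamed loci. Their FPKM in CPE ran from 0.707 to 3.61, against 5.50 for TCF7L2 itself per the authors' deposited table. By count MAML2 followed with 9 of 80 and MAML3 with 5 of 167. Over all unnamed loci 9.45% were called higher in CPE. The share in the MAML2 region was near that and the share in the MAML3 region was below it. In the LEF1 region 4 of 41 were called, also near the share over all unnamed loci. Of these, 1 was at 1.33 in SNE and 12.9 in CPE per the authors' deposited table (9.69-fold higher in CPE, q = 0.000706). The count of unnamed loci followed the size of the region, with Spearman rho = 0.89 over 43 regions, given as a description.

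In some regions that name only 1 gene, calls in both directions could be seen side by side. The regions of WNT3, PORCN, FZD1, FZD2, DLL3 and NOTCH3 held no unnamed locus called higher in CPE. The HES1 region, chr3:193853896-193859066 on hg19, held 3 unnamed loci, 1 of them called at 0.194 in SNE and 2.60 in CPE per the authors' deposited table (q = 0.0352). HEY1's only unnamed locus was at 0.265 and 1.42 per the authors' deposited table (q = 0.000706). The RBPJ region held 23, of which 4 were called higher in CPE, at 1.37 to 4.57 FPKM there, while RBPJ itself was not called. FZD8 had 1 called each way: 0.407 in SNE and 2.51 in CPE for the first, 8.12 and 3.80 for the second, per the authors' deposited table (q = 0.000706 and q = 0.0103). Together the 14 regions with 1 named gene held 80 unnamed loci, 13 called in CPE (16.3%) and 2 in SNE (2.5%). Both shares were above those of all unnamed loci, 9.45% and 0.63%, whereas over all 43 regions both were below. These shares were not tested, and loci of 1 region are not independent.

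**Figure D4:**
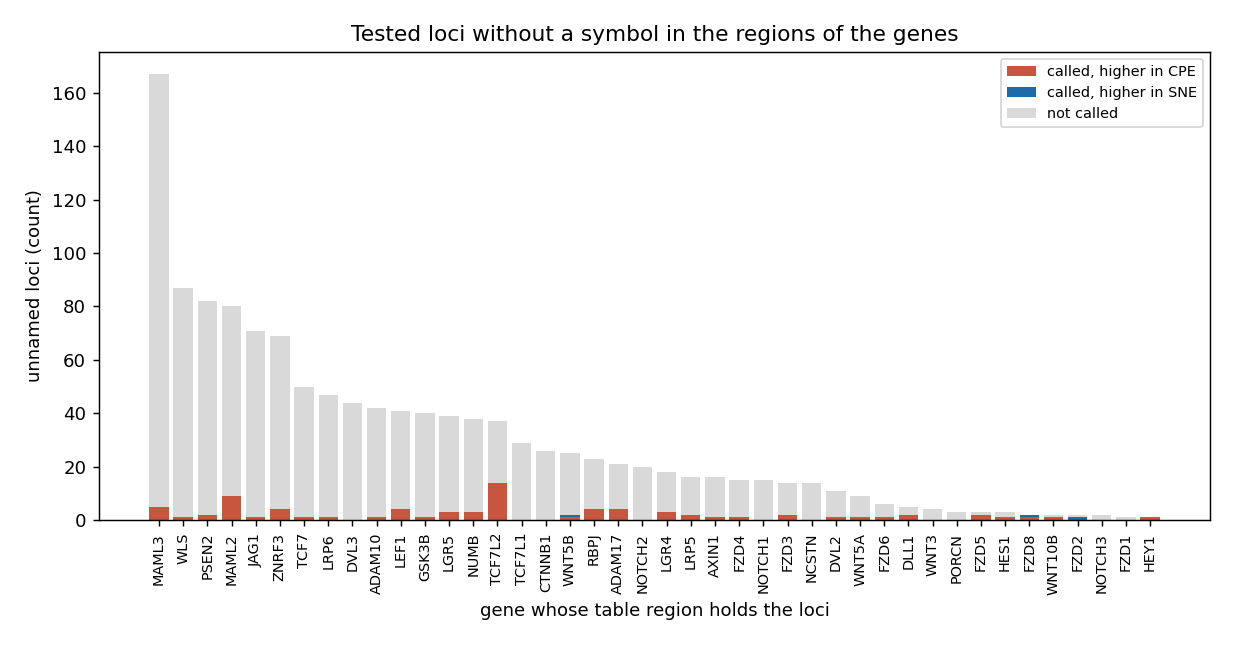
Number of tested loci without a symbol in the table region of each gene, split by call. TCF7L2 has the most loci called higher in CPE, 14 of 37, and MAML3 the most loci in all, 167, of which 5 are called.

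Listed genes without a row of their own stood in rows that join several genes, where the value cannot be assigned to 1 gene. Rows that include APC, GSK3A, CSNK1A1, RNF43 and JAG2 were called higher in SNE at log2 ratios from -2.27 to -1.18 per the authors' deposited table. The row of MAML1 was at -1.41 without a call (q = 0.493) per the authors' deposited table. AXIN2, a feedback target of Wnt signalling, shares a row with CEP112 and CTD-2535L24.2, at 9.59 in SNE and 10.3 in CPE per the authors' deposited table (q = 0.766). Of all 1572 tested rows naming several genes, 42.3% were called higher in SNE and 3.12% higher in CPE.

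Other genes of both pathways also lay toward the soluble extract, with 71 of 72 ratios below 0. The exception was APC2, a relative of APC named after its values were seen, at 0.170 in SNE and 0.214 in CPE per the authors' deposited table, a log2 ratio of 0.33 without a call (q = 0.791). From a list of 107 further genes, 72 had a tested row of their own, and of these 30 were called higher in SNE and 0 higher in CPE, while 42 had no call. At an unadjusted p under 0.05 from the authors' Cuffdiff test, 44 were on the SNE side and 0 on the CPE side, again without a share of all loci at that threshold. The called share was 41.7%, beside 39.1% of all loci with 1 symbol and 52.4% of all tested protein-coding loci. Among the 51 further genes with FPKM of at least 1 in either extract it was 51.0%, beside 56.8% of such protein-coding loci. Against protein-coding loci the share was thus lower in both cases, without a test. The median log2 ratio of the 72 genes was -1.32. Wnt genes had 21 of 47 called and Notch genes 9 of 25. By role, 5 of 14 secreted ligands and regulators, 5 of 13 receptors and polarity genes, 6 of 11 cytoplasmic regulators and 5 of 9 nuclear regulators of Wnt signalling were called. For Notch, 6 of 14 glycosylation, cleavage and trafficking genes, 3 of 9 nuclear regulators and targets, and 0 of 2 further ligands were called.

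The most abundant further Wnt genes were PPP2R1A, a scaffold of phosphatase 2A, CSNK1G2, a casein kinase, and TLE3, a Groucho corepressor. PPP2R1A was at 300.5 in SNE and 70.8 in CPE, and CSNK1G2 at 93.7 and 28.0, per the authors' deposited table (q = 0.000706 for each). TLE3 was at 67.7 and 31.7 per the authors' deposited table without a call (q = 0.179). The lowest called ratios were those of DACT1, a Dishevelled antagonist, SP5, a Wnt target factor, and SFRP5, a secreted Wnt inhibitor. They were higher in SNE by 7.18-fold, 7.06-fold and 6.11-fold per the authors' deposited table (q = 0.00899, 0.0125 and 0.000706). DACT1 was at FPKM 7.48 in SNE and 1.04 in CPE per the authors' deposited table. SP5 was at 0.602 and 0.0853 and SFRP5 at 0.698 and 0.114, so both were under FPKM 1 in both extracts.

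Of the further Notch genes, APH1A, a gamma-secretase subunit, was at 94.6 in SNE and 28.1 in CPE per the authors' deposited table (q = 0.000706). SNW1, a coregulator that binds the Notch complex, was at 76.5 and 26.7 per the authors' deposited table (q = 0.000706), and the corepressor gene NCOR1 was at 64.4 and 45.7 without a call (q = 0.547). HES6, a HES relative that opposes HES1, and NRARP, a feedback inhibitor of Notch, were higher in SNE by 5.19-fold and 5.02-fold per the authors' deposited table (q = 0.000706 for each). HEY2, named after its values were seen, was at 4.08 in SNE and 0.0260 in CPE per the authors' deposited table, without a call (q = 0.310). In contrast, the row that joins WNT7B with CR536603.1, also named afterwards, was at 0.7499 in SNE and 11.5 in CPE per the authors' deposited table (15.3-fold higher in CPE, q = 0.000706), and which of the 2 gave the reads was not tested.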

How the data were processed

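Per the labels' protocols, stranded total RNA libraries were made from fractionated nuclei. TopHat2, Cuffdiff and hg19 are named in the submitters' processing notes. The sources used here do not give versions, annotation, library scaling or use of strand in counting. The deposited gene table holds, per the file headers, 1 FPKM per locus for each group, computed by the authors over replicates, with a log2 ratio (CPE over SNE) of the authors, p-value and q-value. The deposited test statistic, a score with no fixed scale, was not used. A second deposited table of isoforms was not used, because 12307 of 14208 value pairs found once in each table stood under another gene identifier.

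A call required a completed test and the authors' q of at most 0.05. Folds were computed from the deposited FPKM. No new test was run, since there is 1 value per group; depth per sample was unknown, so no counting interval could be given. Across all loci, 16699 tested loci with 1 symbol, protein-coding loci with FPKM of at least 1 and 174660 unnamed loci served as background. Counting functions were tested on simulated data. Gene type, gene length and exon number came from GENCODE 29, matched by symbol (83.5% of the measured loci with 1 symbol, 43 of 43 pathway genes); its coordinates were not used. Region starts are counted from 1. Where a listed gene had several rows of its own, the row of highest FPKM was used.

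Genes and lists were chosen with earlier results of these data known. In each of 12 roles, the rule named the 2 genes of highest mean FPKM, those of highest and lowest ratio and any called in CPE; the other genes are accounted for with their values. For further pathway genes it named, per pathway, the 3 of highest mean FPKM, the 3 called with the lowest ratio and any called in CPE. The alternatives used a stricter q of 0.01, a minimum FPKM of 1, an absolute log2 ratio of at least 1, pseudocounts of 0.1 and 1, centring, and counting rows that name several genes. Python 3.11.15, pandas 2.3.3 and scipy 1.17.1 were used.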

Additional observations from a re-analysis of the deposited data

How the results depend on the processing

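The counts of pathway genes called, 22 in SNE and 0 in CPE, stayed within 1.5 times under each alternative run, with 16 in SNE at a q of at most 0.01 and 27 with rows naming several genes counted, an alternative chosen after seeing the data. WLS, DVL2, LEF1, JAG1, NCSTN and HEY1 were not called at a q of at most 0.01. Centring on loci with 1 symbol moved the median log2 ratio from -1.29 to -0.041 by construction and turned the ratios of WLS (0.090), DVL2 (0.24), NCSTN (0.25), HES1 (0.19) and HEY1 (0.56), without a new test. A pseudocount of 1 gave a median of -1.03. Counting rows that name several genes, the further pathway genes had 1 call in CPE, the row of WNT7B. Regions with no other named locus, also chosen afterwards, held 13 of the 79 unnamed loci called in CPE. The count fell because fewer loci were counted, but the share rose from 6.37% of 1240 to 16.3% of 80, from below to above the 9.45% of all unnamed loci, and the cause was not tested. No paired analysis was possible because the table holds 1 value per group, and leaving out a replicate was not run for the same reason. With depth unknown, a gene not called cannot be told from one measured too thinly.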

Other observations

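Several regions hold a transcript named after the gene itself, antisense (AS) or intronic (IT), none of them called, and ZNRF3-AS1 had no completed test. ZNRF3-IT1 was at 0.0297 in SNE and 0.371 in CPE and TCF7L1-IT1 at 0.0912 and 0.449 per the authors' deposited table (q = 0.556 and q = 0.493). LEF1-AS1 was at 0.475 and 0.693 per the authors' deposited table (q = 0.735), the opposite side from LEF1. WNT5A-AS1 was at 0.281 and 0.129 per the authors' deposited table (q = 0.735), the same side as WNT5A. The sources used here do not say whether counting used strand, and reads of overlapping partners cannot be told apart.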
